A study of Rattus norvegicus with 6 samples.

Results

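Fatty acid oxidation and the use of ketone bodies were followed through 33 genes, chosen by name, in rat tissue labelled as cerebellum. Each of the 33 was matched to exactly 1 row among the 26419 features of the array, and all 6 arrays were used. In the alcohol group (3 pools), 40% alcohol was delivered to the stomach by gavage at 15 ml/kg. In the brine group (3 pools), an equal volume of saline, called brine in the labels, was delivered in the same way. All animals were male Sprague-Dawley rats, 8 to 10 weeks old and weighing 240 to 260 g, with 9 rats in each group. Each pool mixed the tissue of 3 rats, so that the spread between pools, and not that between single animals, is what the tests measured. Rats of both groups had fasted for 12 hours before gavage. Fasting is itself a stimulus for fat and ketone use, and no fed group was analysed here. How long after gavage the tissue was taken is not stated in the labels.

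Fatty acids enter mitochondria as carnitine esters and are shortened there by a repeated cycle of dehydrogenation, hydration, dehydrogenation and thiolysis. In the fasted animal the liver turns the product into the ketone bodies acetoacetate and 3-hydroxybutyrate, which the brain takes up and burns in place of part of its glucose. Fat oxidation in brain is found mainly in astrocytes, whereas neurons rely more on glucose, lactate and ketone bodies. Several genes of the pathway are known targets of PPAR-alpha, a nuclear receptor activated by fatty acids.

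Levels are given as log2 RMA intensities, in which a difference of 1 is a factor of 2. An intensity of 50, or 5.64 on the log2 scale, was taken as the floor under which a row is called dim. Of the 33 rows, 31 reached this floor on all 6 arrays, Oxct1 reached it on 2 arrays and Acads on 0. Because rows differ in their probes, levels were compared between pools and not between genes.

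Alcohol pool 2 and brine pool 1 went against the tissue label, and they did so in both groups alike. Of the 14 granule cell markers, 13 lay lower in these 2 pools than in each of the other 4, as did 10 of 11 Purkinje cell markers. The summed intensity of the granule list was 13743 to 138740 in alcohol pools and 13860 to 148358 in brine pools. All 14 oligodendrocyte markers and all 12 microglia markers lay higher in these 2 pools, as did 13 of 14 endothelial and pericyte markers. Of the 14 astrocyte and Bergmann glia markers (the astrocyte list), 10 lay higher in these 2 pools. In that list 3 markers, Gdf10, Slc1a3 and Aldoc, lay lower in them. The summed intensity of the oligodendrocyte list was 86555 to 235379 in alcohol pools and 77916 to 238798 in brine pools. That of the microglia list was 6042 to 18572 in alcohol pools and 7407 to 14720 in brine pools. That of the endothelial list was 18130 to 36591 and that of the astrocyte list 94780 to 141382 in alcohol pools, against 19279 to 32995 and 95215 to 128874 in brine pools. The brainstem list summed to 580 to 5290 in alcohol pools and 696 to 6439 in brine pools, with 6 of 9 measured members higher in these 2 pools, and its member Hoxb2 lay under the floor on all arrays. In bulk samples, fewer cells of a type and less RNA per cell cannot be told apart. In the choroid plexus and ependyma list another pool stood out, alcohol pool 1, in which Ttr, a thyroid hormone carrier made by choroid plexus, had a level of 13.67. Ttr had levels of 9.04 and 7.65 in alcohol pools 2 and 3, and of 6.78, 7.55 and 6.78 in brine pools. The list summed to 21924, 19019 and 6179 in alcohol pools 1, 2 and 3 and to 16858, 5124 and 5180 in brine pools 1, 2 and 3, and 7 of its 10 markers had a higher mean with alcohol (median difference 0.41). In alcohol pool 2 and brine pool 1 most of this sum came from a single marker, Enpp2, with levels of 14.08 and 13.93. Of the 10 markers, 3 lay higher in these 2 pools than in the other 4, and 3 (Clic6, Kl and Otx2) lay lower. The part of these cell types in the levels below was not tested.

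Many genes of fat oxidation and ketone use followed this division of the pools, as did a large share of all features. Among these genes the upward direction was the more frequent. In 19 of the 33, the values of alcohol pool 2 and brine pool 1 both lay above those of the other 4 pools, a pattern found in 23.4% of all features. In 5 of the 33 both values lay below the other 4, against 25.1% of all features. Among rows at the floor or above on all 6 arrays, the higher pattern held for 18 of 31 genes and for 30.9% of features, and the lower pattern for 5 of 31 genes and 32.4% of features. The distance exceeded 1 log2 unit for 4 genes in the upward direction (Hadh, Pdk4, Slc16a1 and Plin2; 4.75% of all features) and for 1 gene, Cpt1b, in the downward direction (3.54% of all features). The median deviation of the 33 genes from their 6-pool means was -0.15, 0.35 and -0.25 in alcohol pools 1, 2 and 3. It was 0.25, -0.17 and -0.09 in brine pools 1, 2 and 3. These 2 pools were thus the high ones in both groups, and the groups overlapped. These counts describe the pools and were not tested.

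**Figure D1:**
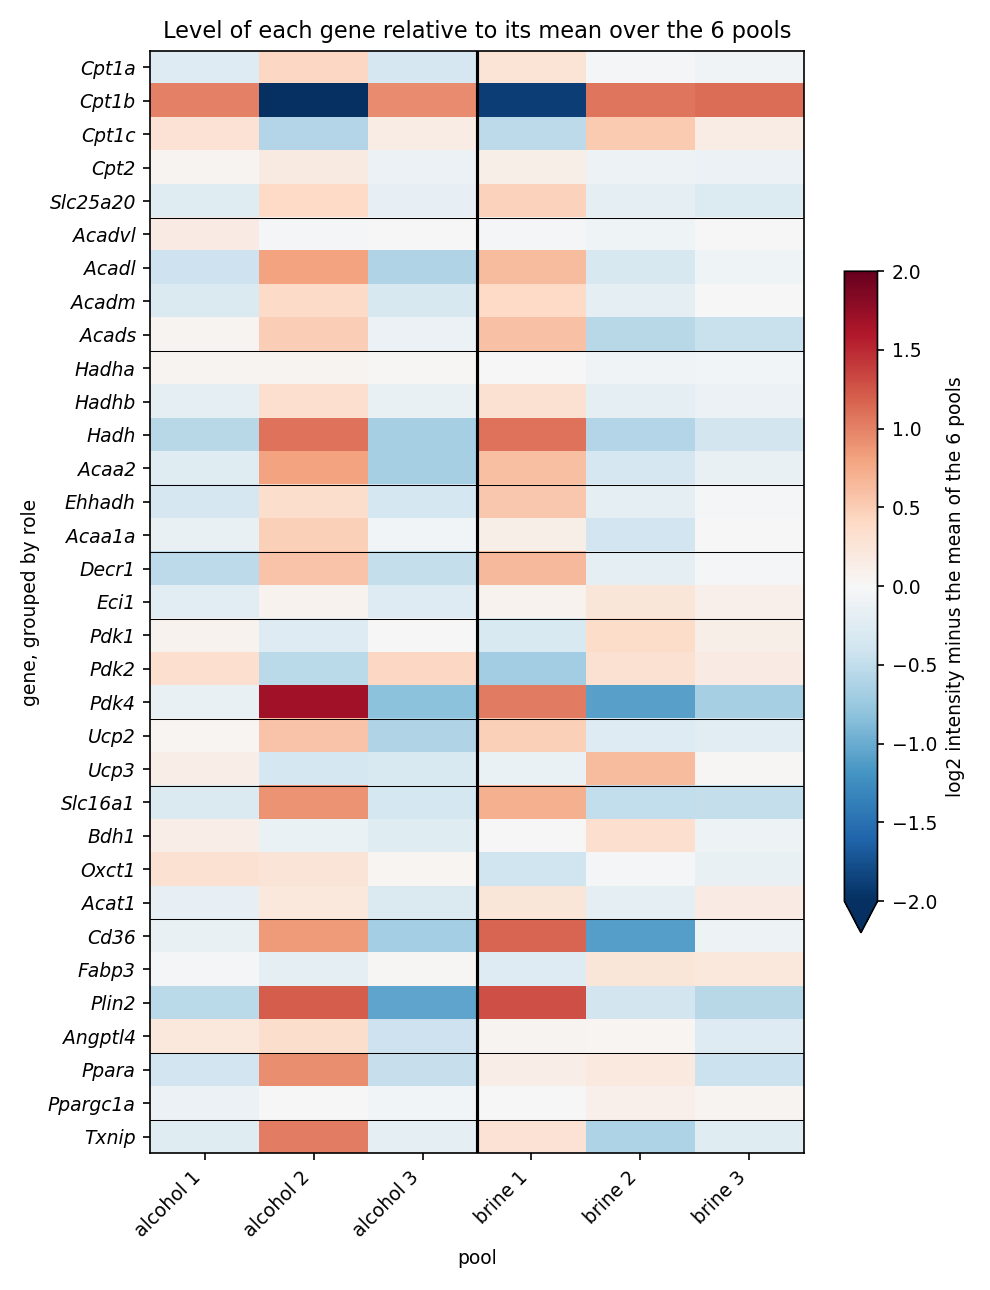
Heat map of the 33 genes (rows, grouped by role with thin lines between roles) in the 6 pools (columns, 3 alcohol pools left of 3 brine pools). Colour gives the log2 intensity minus the gene's mean over the 6 pools, from -2.0 (blue) to 2.0 (red). Columns alcohol 2 and brine 1 stand out together, red for most genes and blue for Cpt1b, Cpt1c, Pdk1, Pdk2 and Fabp3. Ucp3 is pale blue in both columns, but also in alcohol 3. Acadvl, Hadha, Eci1 and Ppargc1a are close to white in both columns. Oxct1 is red in alcohol 2 and blue in brine 1, and Bdh1 is pale blue in alcohol 2 and close to white in brine 1. Cpt1b in alcohol 2 lies below the colour range.

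The comparison of alcohol with brine asks which of these genes respond to acute intoxication in the fasted animal. No gene of the set passed the threshold. The limma fit over all features, with Benjamini-Hochberg adjustment, called 0 of 33 genes and 0 of 26419 features (0%). At an unadjusted p under 0.05 it had 0 of 33 genes, against 1030 features (3.90%). The level was higher with alcohol for 15 genes and lower for 18, and 45.9% of all features were higher. The median difference of the 33 genes was -0.08, against -0.02 for all features. Leaving out 1 pool turned the sign of this median and moved the count of higher genes. The median was -0.21, with 8 genes higher, without alcohol pool 2, and 0.14, with 20 genes higher, without brine pool 1. Leaving out either of these pools left the other in 1 group only. The part of this imbalance in the changed median and counts was not tested. Single genes ranged from -0.35 (Ucp3) to 0.47 (Pdk4). Their median size, sign aside, was 0.14, against 0.16 for all features.

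The standard error of a difference ranged from 0.15 (Hadha) to 1.18 (Cpt1b). With a term for alcohol pool 2 and brine pool 1, called the marker term below, the differences were the same, since each group holds 1 such pool, and the standard errors ranged from 0.11 to 0.31. With this term limma called 0 of 33 genes and 0 of 26419 features (0%) after adjustment, with adjusted p values of the 33 genes from 0.518 to 0.998. At an unadjusted p under 0.05 it had 1 gene, the dim Oxct1, against 2502 features (9.47%). Such genes numbered 2 with array weights (11.0% of all features), 1 with the 4 other arrays alone (8.03% of all features) and 1 without brine pool 1 (5.08% of all features), shares near or below those of all features. For a single gene, exact permutation of 3 pools against 3 reaches p = 0.1 at the lowest. These counts do not show that the genes did not respond.

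**Figure D2:**
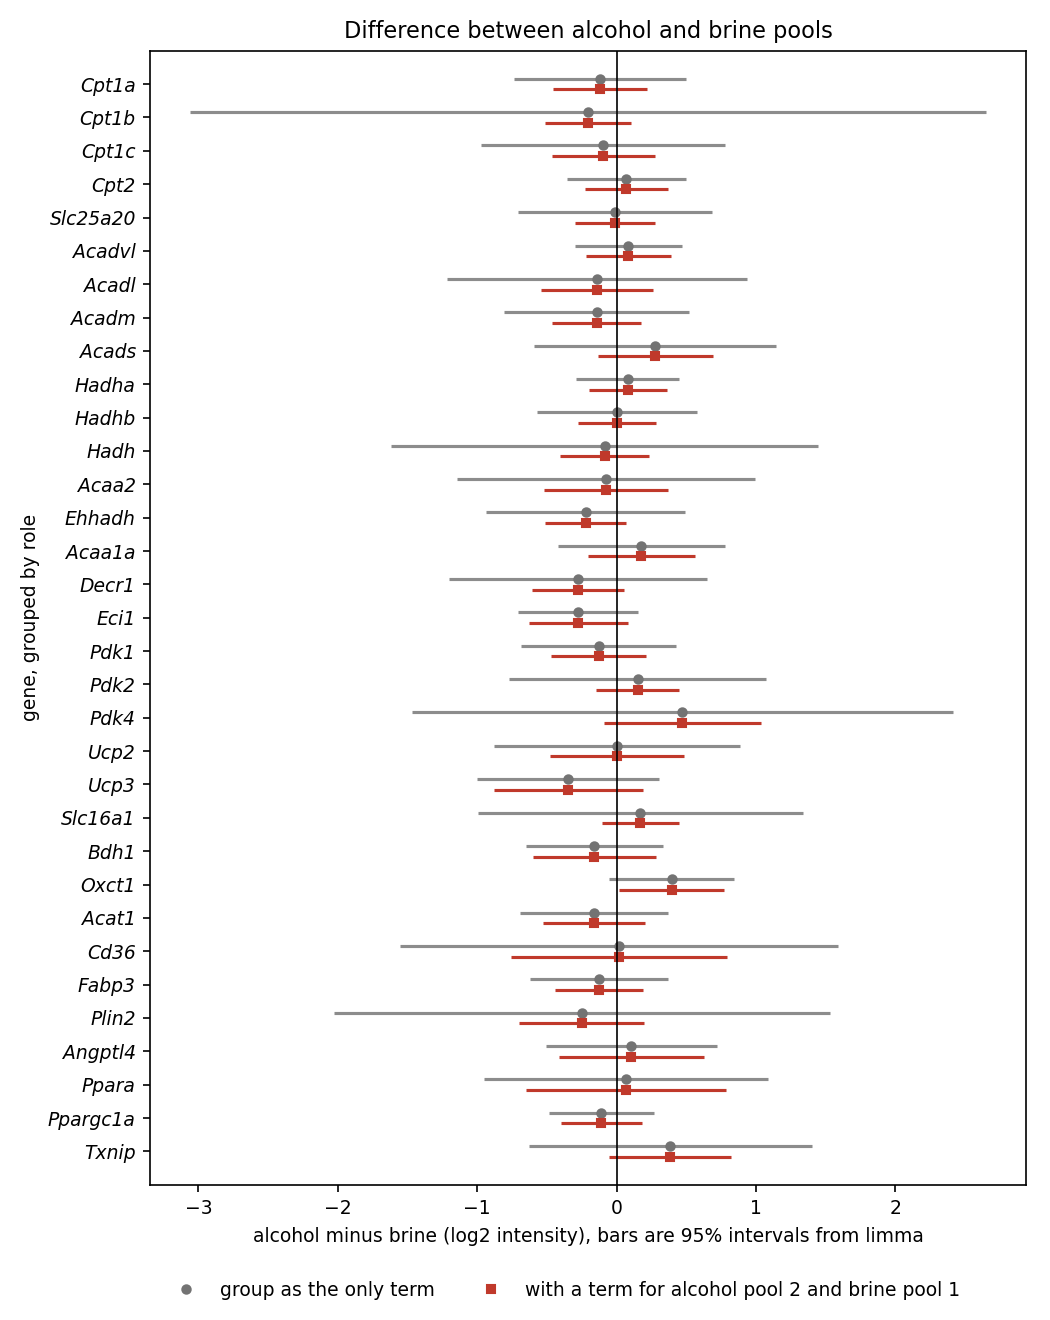
Difference in log2 intensity between alcohol and brine pools for each of the 33 genes, with 95% intervals from limma, fitted with group as the only term (grey circles) and with the marker term (red squares). Intervals with the marker term are shorter, most of all for Cpt1b (standard error 0.12 against 1.18), and only that of the dim Oxct1 lies wholly on one side of 0.

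**Figure D3:**
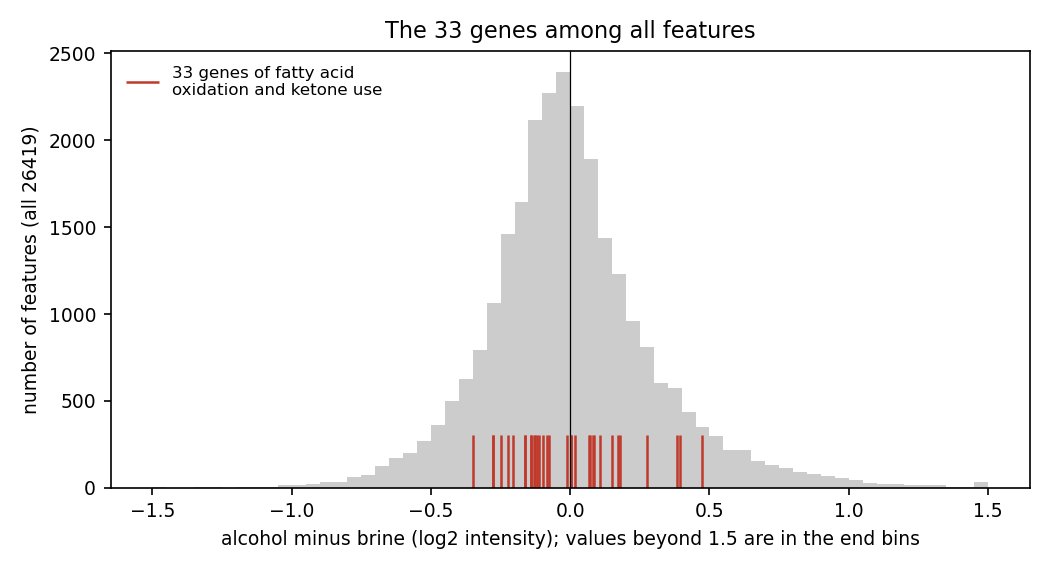
Histogram of the difference in log2 intensity between alcohol and brine pools over all 26419 features (grey, number of features per bin of 0.05), with the 33 genes as red ticks. The ticks lie between -0.35 and 0.47, inside the bulk of the features.

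The alcohol values lay wholly above the brine values for 2 of the 33 genes, Hadha and Oxct1 (4.39% of all features), and wholly below for 0 (4.36% of all features). Counted within the 2 kinds of pool, alcohol lay above brine among the 4 pools and also between the remaining 2 for 5 genes, namely Hadha, Pdk2, Slc16a1, Oxct1 and Txnip (10.8% of all features). It lay below in both for 4 genes, namely Cpt1b, Acadm, Ehhadh and Decr1 (14.4% of all features). Both shares are near those of all features.

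The carnitine shuttle brings long-chain fatty acids into mitochondria, and its gatekeepers are the carnitine palmitoyltransferases of the outer membrane. Cpt1b, the form known from muscle, had levels of 10.22, 6.95 and 10.15 in alcohol pools 1, 2 and 3, against 7.32, 10.28 and 10.33 in brine pools 1, 2 and 3. Its highest value exceeded its lowest by a factor of 10.4, the widest span of the 33 genes. Alcohol pool 2 and brine pool 1 were the low pools, set off by -2.83 from the lowest of the other 4, and the groups overlapped. The difference was -0.21 (SE 1.18; SE 0.12 with the marker term), and without 1 pool it ranged from -1.20 to 0.87. Chkb, a choline kinase gene next to Cpt1b in the rat annotation of GRCr8, was also lower in these pools. Its levels were 11.31, 10.43 and 11.15 in alcohol pools, against 10.50, 11.39 and 11.43 in brine pools. In human, transcripts that run from one of these genes into the other are known; whether such a transcript adds to the Cpt1b row was not tested.

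Cpt1c, the form known from neurons, showed the same order with a smaller step. It averaged 10.35 ± 0.48 in alcohol pools and 10.44 ± 0.54 in brine pools (SD, n = 3 each), and the 2 pools were set off from the other 4 by -0.68. Cpt1a, the form typical of liver and astrocytes, went the other way between pools. It averaged 9.34 ± 0.41 in alcohol pools and 9.46 ± 0.19 in brine pools (SD, n = 3 each), with the 2 pools 0.30 above the other 4. Cpt2, the enzyme of the inner membrane, spanned only 0.29 over the 6 pools and differed by 0.07 (SE 0.18). Slc25a20, the carrier that exchanges acylcarnitine for carnitine, differed by -0.01 (SE 0.29). In both genes the 2 pools lay above the other 4, by 0.07 for Cpt2 and 0.56 for Slc25a20.

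The acyl-CoA dehydrogenases take the first step of the cycle, each for its own chain length. Acadl, for long chains, averaged 10.77 ± 0.77 in alcohol pools and 10.91 ± 0.49 in brine pools (SD, n = 3 each), with 11.64 in alcohol pool 2 and 11.46 in brine pool 1 against 10.24 to 10.74 in the other 4. Acadm, for medium chains, averaged 11.69 ± 0.40 in alcohol pools and 11.83 ± 0.30 in brine pools (SD, n = 3 each), and the 2 pools lay 0.37 above the rest. Acadvl, for very long chains, did not follow this division and stayed between 11.53 and 11.77 in all 6 pools, with a difference of 0.08 (SE 0.16). Acads, for short chains, was dim throughout, with 5.08, 5.52 and 4.91 in alcohol pools and 5.62, 4.47 and 4.58 in brine pools, so that no fold is given.

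The next steps are held by the mitochondrial trifunctional protein, whose alpha and beta subunits are encoded by Hadha and Hadhb. Hadha had levels of 12.89, 12.88 and 12.86 in alcohol pools, against 12.84, 12.76 and 12.78 in brine pools. All alcohol values lay above all brine values, but by a difference of only 0.08 (SE 0.15; 95% interval -0.29 to 0.45), with an adjusted p of 1.00 in limma. Hadhb had levels of 12.22, 12.74 and 12.26 in alcohol pools, against 12.71, 12.21 and 12.29 in brine pools. The groups overlapped fully (0.00, SE 0.24), and alcohol pool 2 and brine pool 1 lay 0.42 above the other 4. These neighbouring genes lie head to head on opposite strands, and their promoter windows in RefSeq share 200 bases. Even so, Hadhb followed the division of the pools and Hadha did not. The window of Hadha (GRCr8, chr6:31907551-31907850, plus strand) is shown for this pair, with the stretch that also belongs to the window of Hadhb (chr6:31907451-31907750, minus strand) in capitals.
Hadha: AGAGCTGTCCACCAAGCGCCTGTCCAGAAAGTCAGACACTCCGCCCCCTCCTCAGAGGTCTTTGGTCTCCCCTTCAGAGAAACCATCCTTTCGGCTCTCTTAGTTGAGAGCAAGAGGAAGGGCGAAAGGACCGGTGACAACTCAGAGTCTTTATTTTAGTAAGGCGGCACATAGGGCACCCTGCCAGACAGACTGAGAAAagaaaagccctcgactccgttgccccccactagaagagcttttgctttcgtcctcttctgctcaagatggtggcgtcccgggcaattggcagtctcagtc

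Hadh, the dehydrogenase for short and medium chains, had levels of 9.17, 10.81 and 9.05 in alcohol pools, against 10.80, 9.13 and 9.35 in brine pools. The 2 pools with few cerebellar markers were nearly equal and lay 1.45 above the highest of the other 4. The groups overlapped (-0.08, SE 0.63; SE 0.13 with the marker term). Acaa2, the thiolase that ends the cycle, averaged 10.12 ± 0.75 in alcohol pools and 10.20 ± 0.50 in brine pools (SD, n = 3 each), with the same 2 pools 0.75 above the rest.

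Peroxisomes shorten very long chains with enzymes of their own. Ehhadh, their bifunctional enzyme, averaged 8.77 ± 0.40 in alcohol pools and 8.99 ± 0.37 in brine pools (SD, n = 3 each), and it was lower with alcohol within both kinds of pool. Acaa1a, a peroxisomal thiolase, averaged 9.42 ± 0.33 in alcohol pools and 9.25 ± 0.26 in brine pools (SD, n = 3 each). Unsaturated fatty acids need helper enzymes, and both members of this kind were lower with alcohol without passing the threshold. Decr1, a dienoyl-CoA reductase, differed by -0.28 (SE 0.38; SE 0.13 with the marker term), with an adjusted p of 0.561 in limma with that term. Eci1, an enoyl-CoA isomerase, had levels of 9.96, 10.27 and 9.94 in alcohol pools, against 10.27, 10.44 and 10.29 in brine pools. Alcohol pool 2 overlapped with brine pool 1 by less than 0.01, and the difference was -0.28 (SE 0.18; adjusted p = 1.00 in limma). Without 1 pool it ranged from -0.38 to -0.22.

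The pyruvate dehydrogenase kinases shut off the entry of pyruvate into the citrate cycle and so spare glucose while fat is burnt. Pdk4, the form known to be induced by fasting, had levels of 9.82, 11.64 and 9.15 in alcohol pools, against 11.01, 8.88 and 9.30 in brine pools. Alcohol pool 2 and brine pool 1 were the high pools, and the other alcohol and brine pools overlapped. Its difference of 0.47 (SE 0.80; SE 0.23 with the marker term) was the largest of the 33 genes and had an adjusted p of 0.566 in limma with that term. Without 1 pool the difference of Pdk4 ranged from -0.25 to 1.11. Pdk2, the widespread form, showed the opposite division, with 13.78, 12.90 and 13.86 in alcohol pools against 12.74, 13.75 and 13.60 in brine pools. Alcohol lay above brine within both kinds of pool, by a difference of 0.15 (SE 0.38; SE 0.12 with the marker term). Pdk1, a form induced by hypoxia, averaged 9.51 ± 0.17 in alcohol pools and 9.64 ± 0.34 in brine pools (SD, n = 3 each), and it too was lowest in the 2 pools with few cerebellar markers.

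**Figure D4:**
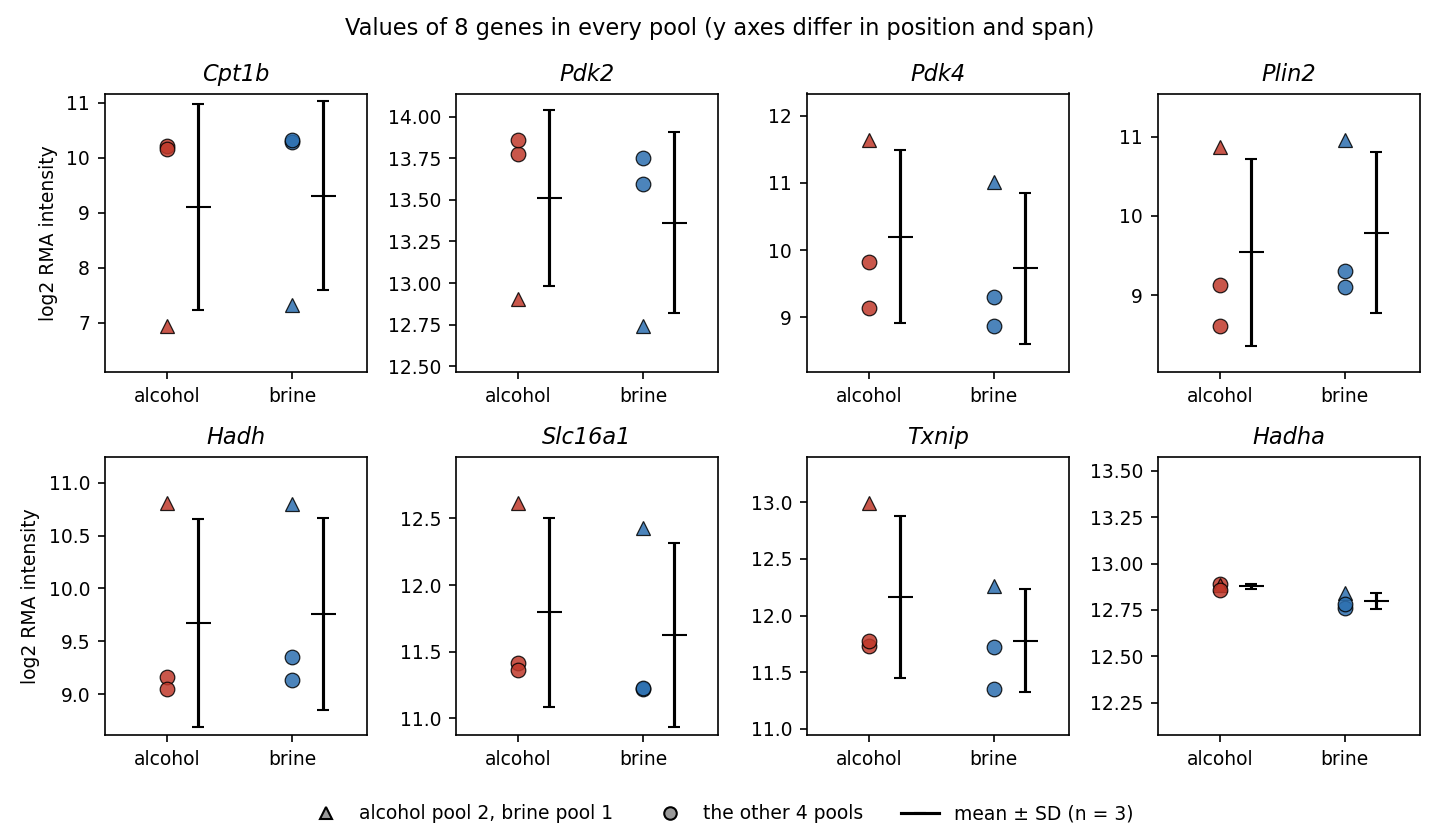
Log2 RMA intensity of 8 genes in each pool, alcohol (red) left of brine (blue), with the mean ± SD (n = 3) beside the points; triangles are alcohol pool 2 and brine pool 1, circles the other 4 pools. The triangles lie together, below the circles for Cpt1b and Pdk2 and above them for Pdk4, Plin2, Hadh, Slc16a1 and Txnip, whereas the 6 values of Hadha lie between 12.76 and 12.89.

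Uncoupling proteins sit in the inner mitochondrial membrane, where Ucp2 and Ucp3 are thought to limit oxidant formation during fat oxidation. Ucp2 had levels of 12.85, 13.39 and 12.22 in alcohol pools, against 13.30, 12.55 and 12.60 in brine pools. The groups overlapped (0.00, SE 0.37), and the 2 pools again held the highest values. Ucp3, known from muscle and next to Ucp2 in the annotation of GRCr8, was close to the floor with 6.14, 5.67 and 5.71 in alcohol pools, against 5.88, 6.65 and 6.04 in brine pools. Its difference of -0.35 (SE 0.27) was the lowest of the set and had an adjusted p of 1.00 in limma.

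Ketone bodies reach brain cells through the monocarboxylate transporter MCT1, encoded by Slc16a1, which is known from brain endothelium, astrocytes and oligodendrocytes. Slc16a1 had levels of 11.41, 12.61 and 11.36 in alcohol pools, against 12.43, 11.22 and 11.23 in brine pools. Alcohol pool 2 and brine pool 1 lay 1.01 above the other 4. Within each kind of pool alcohol lay above brine, by a difference of 0.17 (SE 0.48; SE 0.11 with the marker term; 95% interval -0.11 to 0.45 with that term). The adjusted p was 0.650 in limma with that term.

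The enzymes of ketone use varied less. Bdh1, which oxidises 3-hydroxybutyrate to acetoacetate, had levels of 10.76, 10.49 and 10.38 in alcohol pools, against 10.63, 10.96 and 10.52 in brine pools, and did not follow the division of the pools. Its difference was -0.16 (SE 0.20). Acat1, the thiolase that splits acetoacetyl-CoA, averaged 11.29 ± 0.26 in alcohol pools and 11.45 ± 0.23 in brine pools (SD, n = 3 each).

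Oxct1, the transferase that activates acetoacetate and is needed for any ketone use outside the liver, gave values that depended on the row read. The row whose gene identifier is Oxct1, named LOC690163 in the files, was near or under the floor. Its levels were 5.76, 5.71 and 5.50 in alcohol pools, against 5.06, 5.42 and 5.31 in brine pools. The groups did not overlap, and the difference was 0.39 (SE 0.19; adjusted p = 1.00 in limma). All 3 brine values were under the floor, so that no fold is given. A pair of other rows is described in the files as similar to the same enzyme, and neither has an entry in the gene table of GRCr8. LOC690109, a short model with a coding region of 255 bases, had intensities of 7536, 7497 and 6639 in alcohol pools, against 8422, 6763 and 6905 in brine pools. LOC678860 had intensities of 3091, 3446 and 2455 in alcohol pools, against 2370, 2671 and 2844 in brine pools. In both rows the groups overlapped, with log2 differences of -0.02 (SE 0.18) for LOC690109 and 0.18 (SE 0.20) for LOC678860. Which of these rows reads the Oxct1 transcript was not tested.

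Uptake, binding and storage of fatty acids are served by Cd36, Fabp3, Plin2 and Angptl4. Plin2, a coat protein of lipid droplets, had levels of 9.13, 10.88 and 8.62 in alcohol pools, against 10.96, 9.30 and 9.11 in brine pools. The 2 pools with few cerebellar markers lay 1.57 above the other 4, the widest upward step of the 33 genes, and the groups overlapped (-0.25, SE 0.73; SE 0.18 with the marker term). Cd36, a fatty acid translocase known from endothelium and microglia, had levels of 7.34, 8.33 and 6.81 in alcohol pools, against 8.66, 6.39 and 7.39 in brine pools. It was high in the same 2 pools and differed by 0.02 (SE 0.65). Fabp3, a fatty acid binding protein of heart and neurons, was lowest in these pools, and averaged 12.05 ± 0.10 with alcohol and 12.18 ± 0.28 with brine (SD, n = 3 each). Angptl4, a secreted inhibitor of lipoprotein lipase induced by fasting, did not follow the division, and averaged 8.85 ± 0.40 with alcohol and 8.74 ± 0.18 with brine (SD, n = 3 each).

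Of the regulators, Ppara, which encodes PPAR-alpha, averaged 6.68 ± 0.78 in alcohol pools and 6.61 ± 0.35 in brine pools (SD, n = 3 each). Its value of 7.58 in alcohol pool 2 stood above the other 5, which lay between 6.19 and 6.84. Ppargc1a, the coactivator PGC-1 alpha, varied little, between 11.51 and 11.73 over all 6 pools, with a difference of -0.11 (SE 0.16). Txnip, which binds and inhibits thioredoxin and restrains glucose uptake, had levels of 11.73, 12.99 and 11.77 in alcohol pools, against 12.26, 11.35 and 11.72 in brine pools. Alcohol lay above brine within both kinds of pool, with a step of 0.73 between alcohol pool 2 and brine pool 1 and of 0.21 between the means of the other 4. The difference of 0.39 (SE 0.42; SE 0.18 with the marker term) had an adjusted p of 0.554 in limma with that term, and without 1 pool it ranged from -0.03 to 0.63.

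Promoter windows, from 250 bases before to 50 bases after a gene's start, were held for 27 of the 33 genes in the RefSeq table of GRCr8 (28 windows among 33469). The direct repeat bound by nuclear receptors such as PPAR-alpha was read as AGGTCA, any 1 base and AGGTCA again on either strand. It was found in the windows of 0 of the 27 genes and in 0.0538% of all windows. An exact repeat this rare would be missing from most lists of this size, so the 0 does not show that such sites are absent. The cyclic AMP response element TGACGTCA was found for 2 genes, Acadm and Ppargc1a (1.83% of all windows). The E-box CACGTG was found for 3 genes, Slc16a1, Plin2 and Pdk2 (6.42% of all windows). All 3 belong to the genes in which alcohol pool 2 and brine pool 1 stood apart, as did most of the 33, with Slc16a1 and Plin2 higher and Pdk2 lower in these pools. A match describes these letters only. The windows are shown with the E-box in capitals, at chr2:194812410-194812709 (plus strand) for Slc16a1, chr5:106228969-106229268 (minus strand) for Plin2 and chr10:80483863-80484162 (minus strand) for Pdk2.
Slc16a1: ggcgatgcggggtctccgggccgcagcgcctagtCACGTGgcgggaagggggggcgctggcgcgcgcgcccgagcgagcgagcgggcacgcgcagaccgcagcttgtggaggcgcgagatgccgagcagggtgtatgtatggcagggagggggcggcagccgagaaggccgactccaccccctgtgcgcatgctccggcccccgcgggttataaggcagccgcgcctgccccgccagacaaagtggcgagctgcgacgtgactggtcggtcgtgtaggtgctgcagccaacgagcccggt
Plin2: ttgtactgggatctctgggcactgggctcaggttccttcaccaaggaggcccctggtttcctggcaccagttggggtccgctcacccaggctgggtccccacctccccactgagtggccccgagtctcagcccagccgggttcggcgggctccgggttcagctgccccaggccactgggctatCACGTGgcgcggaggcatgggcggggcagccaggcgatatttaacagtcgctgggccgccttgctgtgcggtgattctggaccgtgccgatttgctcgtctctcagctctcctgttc
Pdk2: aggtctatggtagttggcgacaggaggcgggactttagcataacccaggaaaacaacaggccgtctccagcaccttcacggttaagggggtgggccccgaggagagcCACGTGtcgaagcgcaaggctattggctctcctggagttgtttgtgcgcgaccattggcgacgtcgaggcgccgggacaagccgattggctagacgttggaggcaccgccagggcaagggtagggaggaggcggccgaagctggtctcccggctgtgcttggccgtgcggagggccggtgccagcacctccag

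A wider list of the pathway, with 86 measured genes of 87, held further enzymes of mitochondrial and peroxisomal oxidation, acyl-CoA synthetases, ketone body synthesis, pyruvate handling and energy sensing. limma called 0 of the 86, and 1 had an unadjusted p under 0.05, against 3.90% of all features. That 1 gene was Ucp1, whose row was under the floor on every array. The level was higher with alcohol for 35 genes and lower for 51, with a median difference of -0.03. Alcohol values lay wholly above brine values for 3 genes (4.39% of all features) and wholly below for 2, Slc25a14 and Pdhb (4.36% of all features).

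Prkaa1 and Prkaa2 encode the catalytic subunits of AMP-activated protein kinase, a sensor of low energy that favours fat oxidation. Prkaa1 had levels of 11.22, 11.45 and 11.24 in alcohol pools, against 11.11, 10.94 and 11.00 in brine pools. Prkaa2 had levels of 10.73, 10.53 and 10.87 in alcohol pools, against 10.40, 10.41 and 10.47 in brine pools. Both were higher in each alcohol pool than in any brine pool. The differences were 0.29 (SE 0.17) for Prkaa1 and 0.28 (SE 0.17) for Prkaa2, with adjusted p values of 1.00 in limma, and of 0.524 and 0.549 with the marker term. Ucp1, the uncoupling protein of brown fat, had levels of 5.13, 4.83 and 4.99 in alcohol pools, against 4.25, 4.28 and 4.36 in brine pools, all under the floor, so that no fold is given. Crot, a peroxisomal carnitine transferase, differed by 0.27 (SE 0.24).

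Among the lower genes, Klf15, a transcription factor of the fasting response, averaged 8.09 ± 0.21 in alcohol pools and 8.50 ± 0.19 in brine pools (SD, n = 3 each), a difference of -0.41 (SE 0.20; adjusted p = 1.00 in limma, 0.516 with the marker term). Mpc1, a subunit of the mitochondrial pyruvate carrier, averaged 10.60 ± 0.20 in alcohol pools and 10.95 ± 0.26 in brine pools (SD, n = 3 each). Slc25a14, a brain form of uncoupling protein, had levels of 10.32, 10.28 and 10.34 in alcohol pools, against 10.81, 10.65 and 10.37 in brine pools. Pdhb, a subunit of pyruvate dehydrogenase, had levels of 12.52, 12.48 and 12.56 in alcohol pools, against 12.67, 12.65 and 12.57 in brine pools, again without overlap. Acad8, a dehydrogenase of valine breakdown, was close to the floor, which it reached on 5 of the 6 arrays, and differed by -0.28 (SE 0.18). The threshold was not passed by any of these genes.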

How the data were processed

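RNA was measured on single-colour NimbleGen arrays with Cy3-labelled cDNA. The authors deposited a linear RMA intensity per sequence for each array; per the submitters' processing notes the method was RMA (background correction, normalization and a summary over probes), of unstated version. For the scanner software and the genome build the labels state nothing. Array medians were 213.2 to 232.8. The entry that summarised the random-sequence control probes, left out of the tests, had intensities of 23.3 to 25.5. Correlations between arrays ranged from 0.937 to 0.989, and no array was a copy of another. The number of arrays limits the precision.

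The log2 of each intensity was taken, with no other normalization. Rows were named through the gene identifier and RefSeq genes of GRCr8 (20681 features), the accession (31) or the files' symbol (5707), with the brightest row taken per gene. Alcohol was compared with brine in limma 3.58.1 under R 4.3.3 (lmFit and eBayes with the group alone in the model, two-sided p adjusted by Benjamini-Hochberg over all 26419 features, threshold 0.05), tested on simulated data; tables and plots used Python 3.11.15, pandas 2.3.3, numpy 2.4.6 and matplotlib 3.10.9. Values on every array are given for genes whose groups did not overlap, the 6 with the smallest p, the 6 with the widest range, the 4 with the highest mean and a few chosen after their values were seen (Slc16a1 and the rows next to Cpt1b and Oxct1). Of the wider list, the 4 higher and 4 lower genes with the smallest p are named, with Pdhb added after its values were seen. Genes, lists, markers, tests and alternatives, the marker term included, were chosen with earlier results of these data known. Nothing in the labels says how rats were assigned to pools. The alternatives were other normalizations, filters and eBayes options, array weights, the replicate number as a block, the marker term, the 4 arrays without the marker difference, each pool left out and other rows for Oxct1.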

Additional observations from a re-analysis of the deposited data

How the results depend on the processing

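limma called 0 of the 33 genes under every alternative run, and the smallest adjusted p of any feature ranged from 0.130 (without alcohol pool 2) to 1.00. Genes of the set with an unadjusted p under 0.05 numbered 2 with array weights (11.0% of all features), 1 with the marker term (9.47%), 1 with the 4 other arrays (8.03%) and 1 without brine pool 1 (5.08%). Deviations of same-numbered pools correlated at -0.63, -0.68 and 0.60, and those of alcohol pool 2 and brine pool 1 at 0.84. Because these 2 pools stand apart and carry different numbers, the correlations cannot show whether replicate numbers paired the samples. With the replicate number as a block, 0 genes and 0 features were called, and 647 features had an unadjusted p under 0.05, against 1030. Without 1 pool, 8 to 20 genes were higher with alcohol and 13 to 25 lower, with 8 higher without alcohol pool 2. The median difference of the 33 ranged from -0.21 to 0.14, that of the wider list from -0.13 to 0.03, and 0 genes were called in either.

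The sign of the difference held for 13 genes whichever pool was left out and turned for 20. It turned for 11 genes without alcohol pool 2, 7 each without alcohol pool 3, brine pool 1 or brine pool 2, 6 without brine pool 3 and 5 without alcohol pool 1. Without alcohol pool 2 or brine pool 1, the pools that stood apart in their markers were no longer balanced between the groups. The part of this imbalance in the turns and in the ranges below was not tested. The ranges were -0.35 to 0.017 for Cpt1a, -1.20 to 0.87 for Cpt1b, -0.39 to 0.17 for Cpt1c, -0.21 to 0.22 for Slc25a20, -0.58 to 0.14 for Acadl, -0.37 to 0.021 for Acadm, -0.16 to 0.16 for Hadhb and -0.65 to 0.43 for Hadh. They were -0.49 to 0.24 for Acaa2, -0.013 to 0.30 for Acaa1a, -0.31 to 0.024 for Pdk1, -0.16 to 0.45 for Pdk2, -0.25 to 1.11 for Pdk4, -0.28 to 0.30 for Ucp2, -0.24 to 0.57 for Slc16a1 and -0.53 to 0.61 for Cd36. They were -0.92 to 0.34 for Plin2, -0.043 to 0.34 for Angptl4, -0.38 to 0.31 for Ppara and -0.0285 to 0.63 for Txnip.

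Array weights turned Cpt1b (0.031), Hadhb (-0.047) and Ppara (-0.18). The 4 other arrays alone turned Slc25a20 (0.020), Hadhb (-0.0094), Ucp2 (-0.044) and Ppara (-0.30). Centring each array on its median and quantile normalization each turned Slc25a20 (0.018 and 0.024). Reading Oxct1 from the row LOC690109, an alternative added after seeing the data, gave -0.023. The causes of the turns under array weights and normalization were not tested. Each gene had 1 row, so that a mean over rows gave no other value. With 3 pools in each group, differences smaller than the intervals given could not be detected. The intervals are not adjusted for the number of features, so larger differences could also go uncalled. With the marker term, Oxct1 had an interval of 0.017 to 0.77 and an adjusted p of 0.518 in limma. Rows under or close to the floor (Oxct1, Acads and Ucp3, with Ucp1 and Acad8 of the wider list) carry little signal over background.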
